A study of Danio rerio with 3 samples.

Results

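Rhombic lip and dorsal hindbrain progenitors were followed in single-cell RNA sequencing of zebrafish embryos. The cells were chosen by measured values: a cell was taken when it held UMIs (unique molecular identifiers, each standing for 1 captured transcript) of at least 4 of the 7 genes olig3, olig4, atoh1a, zic1, zic4, msx3 and fzd10, with at least 1 UMI of olig3 or atoh1a, fewer than 2 UMIs of mafba and fewer than 3 of hoxb1a. The filters on quality asked for 500 genes or more per barcode, fewer than 6500, and a mitochondrial share of UMIs under 5%. Of the 23453 cells that passed them, 2062 were selected. They were 479 cells of the mutant library, 691 of the heterozygote library and 892 of the wild-type library, and are called dorsal progenitors here.

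The study asked how loss of the homeobox gene shox2 changes the developing inner ear, and sequenced tissue dissected around the otic vesicle, which lies beside the hindbrain. By its text the dissection was meant to leave the hindbrain out. The study nonetheless identified progenitors of rhombomeres, the segments of the hindbrain, among its mutant and wild-type cells by Hox genes. It reported altered Hox gene levels in the mutant ones and that rhombomere development was not normal without shox2. There was 1 library for each genotype: shox2Δ/Δ mutants, shox2Δ/+ heterozygotes and shox2+/+ wild-type embryos, at about 22 hpf (hours post fertilization) by the sample labels. The study's methods name earlier stages beside that one, so a library may mix stages, which the labels do not tell apart. The mutant and the wild-type embryos were pooled by genotype, and the deletion was made with guides to exons 1 and 2 of shox2. By the study's methods the mutants were picked as GFP-negative embryos from crosses of fish carrying a shox2 Gal4 allele with UAS:GFP, and the wild-type embryos carried Tg(neurog1:dsRed) and Tg(neurod1:EGFP), while no source used here describes the reporters of the heterozygote embryos. Genotype, transgenes, embryo pool and library are therefore 1 and the same label and cannot be told apart, and no test between genotypes could be made.

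The rhombic lip is the dorsal edge of the hindbrain neural tube, where it borders the roof plate. Roof plate cells secrete BMP and Wnt ligands, and progenitors next to them switch on the proneural bHLH factor Atoh1 and give rise to cerebellar granule cells and several precerebellar and brainstem neurons. The bHLH factor Olig3 marks a wider dorsal band, and below it lie progenitors that use Gsx and Ptf1a, and then the Dbx1 domain of the intermediate neural tube. Along the other axis, Hox genes and Egr2 divide the hindbrain into rhombomeres.

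Depth differed little between dorsal progenitors and other cells. Median UMIs per dorsal progenitor were 18888 in the mutant, 17270 in the heterozygote and 21027 in the wild-type library, against 17494, 16570 and 19450 over all passing cells, and the summed UMIs behind each level were 10460068, 13646258 and 20010088. The libraries shared cell barcodes: 2083 between mutant and wild-type, 1497 between mutant and heterozygote and 1089 between heterozygote and wild-type. Passing cells whose barcode had more UMIs in another library numbered 596, 293 and 104, and their median depth in the mutant, heterozygote and wild-type library was 1139, 1112 and 1121.5 UMIs. Only 4, 2 and 1 dorsal progenitors were such cells, and without them the count of genes higher for heterozygote over wild-type was 204 in place of 203, while the other counts of genes between libraries and between cell sets were unchanged. No doublet caller was run, and leaving out the 8% deepest cells of each library served in its place.

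Free RNA was read from endothelium-like cells (at least 3 of 12 vascular genes; 153, 158 and 175 cells with median depths of 21077, 22281 and 20232 UMIs in the mutant, heterozygote and wild-type library), which should lack neural genes. Intervals are 95%, exact, and cover counting error only, since PCR and library effects are not in them. For shox2 itself the dorsal progenitors held 1 UMI in the mutant, 17 in the heterozygote and 25 in the wild-type library, and after each cell was thinned to 10000 UMIs 0.225%, 1.09% and 0.352% of them had a UMI, against 0%, 3.23% and 0.690% of endothelium-like cells. These shares are at the level of background, so shox2 does not check the labels in these cells. The library kit reads the end of the transcript opposite to the deletion, though the study reported shox2 transcript nearly lost in whole mutant embryos by RT-qPCR. The reporter rows did differ between libraries: EGFP stood at 2.39, 250 and 72.2 CPM (UMIs per 1000000 summed UMIs of the same cells) and DsRed at 0, 2.13 and 159 CPM in the mutant, heterozygote and wild-type dorsal progenitors.

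The genes of the rule are described without a test, because they chose the cells. The gene olig3 was the most widely found of them, with a UMI in 83.1% of mutant, 86.4% of heterozygote and 81.2% of wild-type dorsal progenitors at 10000 UMIs per cell, against 1.98%, 2.42% and 1.38% of endothelium-like cells. Its level was 319, 336 and 261 CPM in dorsal progenitors, against 35.5, 29.3 and 19.2 CPM in other neural progenitors, which are non-selected cells with UMIs of at least 3 of sox2, sox3, sox19a, sox19b and fabp7a and fewer than 3 of elavl3 plus elavl4 (2388, 3225 and 2872 cells). A UMI of atoh1a was found in fewer of the cells, 30.0%, 37.5% and 39.8% at 10000 UMIs, and stood at 139, 194 and 152 CPM against 16.5, 12.2 and 12 CPM. The selection is thus mainly an olig3 population, of which atoh1a cells are a part.

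Before thinning, 29.6% of the mutant, 37.0% of the heterozygote and 40.7% of the wild-type dorsal progenitors held both olig3 and atoh1a, and 65.3%, 58.0% and 54.4% held olig3 alone. Most cells cleared the limit on markers with room: 73, 98 and 140 cells held exactly 4 of the 7, and 64, 112 and 130 held all of them. Just inside the limit, cells with 4 markers had 173, 186 and 180 CPM of olig3 in the mutant, heterozygote and wild-type library. Just outside it, 55, 70 and 86 cells with 3 markers had 59.6, 112 and 74.5 CPM. The limits on mafba, a rhombomere 5 and 6 factor, and on hoxb1a, a rhombomere 4 gene, turned away 268, 286 and 278 cells that carried at least 4 markers, so that those rhombomeres are under-represented by construction.

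Dorsal progenitors made up 7.18% of the passing mutant cells (6.57 to 7.83%), 8.39% of the heterozygote cells (7.80 to 9.01%) and 10.4% of the wild-type cells (9.79 to 11.1%). The log2 ratio of these shares was -0.54 (-0.70 to -0.38) for mutant over wild-type and -0.31 (-0.46 to -0.17) for heterozygote over wild-type. Without the limits on mafba and hoxb1a these ratios were smaller, -0.29 (-0.42 to -0.16) and -0.21 (-0.33 to -0.08). A rule that counts detected genes takes more cells where depth is higher. With every cell thinned to 10000 UMIs the shares were 7.34%, 8.64% and 9.43%, and with 5000 UMIs they were 5.05%, 5.52% and 5.39%, where the log2 ratio was -0.09 (-0.32 to 0.13) for mutant over wild-type and 0.03 (-0.17 to 0.23) for heterozygote over wild-type. At the lowest depth the intervals of both ratios thus held 0.

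**Figure D1:**
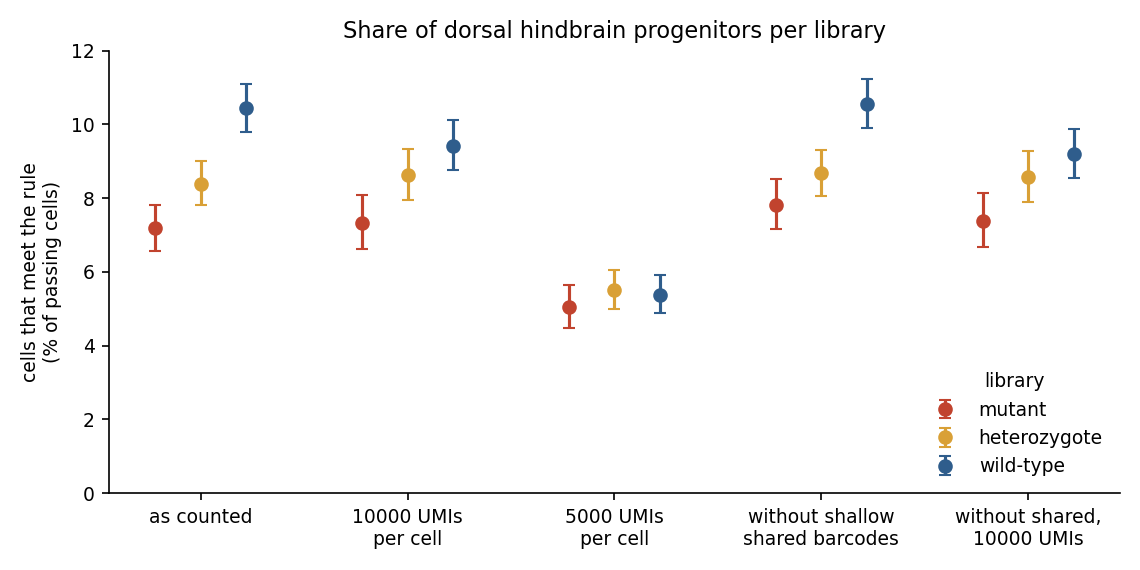
Share of passing cells that meet the rule (percent, with exact 95% intervals) in the mutant, heterozygote and wild-type library, as counted, with every cell thinned to 10000 or 5000 UMIs, and without cells whose barcode had more UMIs in another library. As counted the shares are 7.18%, 8.39% and 10.4%, and at 5000 UMIs per cell all 3 lie between 5.05% and 5.52%.

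Removing the barcodes with more UMIs in another library raised the mutant share to 7.82%, against 10.6% in the wild-type library, and with thinning to 10000 UMIs as well it was 7.38% against 9.19% (log2 ratio -0.32, -0.50 to -0.13). The shares also depend on which other cells the dissection took. Out of dorsal and other neural progenitors together, the dorsal ones made up 16.7% (15.4 to 18.1%) in the mutant, 17.6% (16.5 to 18.9%) in the heterozygote and 23.7% (22.3 to 25.1%) in the wild-type library. The rule for other neural progenitors did not exclude otic or epidermal cells. Their otic and placode markers summed to 605, 421 and 372 CPM in the mutant, heterozygote and wild-type library, against 247, 243 and 149 CPM in endothelium-like cells. With 1 library per genotype, a different dissection and a different number of dorsal cells cannot be told apart.

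To check the name given to the cells, marker lists of other tissues were read. Of the dorsal progenitors 89.1% of mutant, 87.7% of heterozygote and 88.1% of wild-type cells held at least 3 of the 5 neural progenitor genes sox2, sox3, sox19a, sox19b and fabp7a, none held 3 markers of endothelium and blood, and 3.76%, 4.34% and 3.36% held at least 3 of neural crest. Of 16 listed genes of neurons that the rhombic lip later makes, 14 were found. They summed to 118, 101 and 93.3 CPM, against 227, 236 and 195 CPM in other neural progenitors. Only pax6a, a gene also of progenitors, was tested, and it was lower in dorsal progenitors. Some of the others were near 0: barhl1a had 1.24, 2.27 and 0.400 CPM, lhx9 had 0.382, 1.39 and 0.650 CPM, and lhx2a had no UMI in any library. The roof plate genes wnt1, at 1.34, 1.91 and 0.950 CPM, and gdf7, at 0.0956, 0.147 and 0 CPM, were also low. The whole roof plate list of 16 genes was not low. It summed to 742, 649 and 397 CPM, against 214, 190 and 98.3 CPM in other neural progenitors. The atoh1 paralog atoh1c, at 0, 0.147 and 0.0500 CPM, was hardly read. Neuronal transcripts were not absent: the list of 20 neuron markers summed to 425, 339 and 621 CPM in dorsal progenitors, against 194, 195 and 376 CPM in other neural progenitors, where elavl3 and elavl4 were limited by the definition. At least 3 UMIs of elavl3 were held by 21.9%, 25.2% and 34.4% of dorsal progenitors. The selection thus also holds cells rich in elavl3, a gene of early neurons.

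Markers of epidermis and endoderm were present in many of these cells and differed between libraries. At least 3 of 14 such genes were found in 38.2% of mutant, 29.5% of heterozygote and 19.2% of wild-type dorsal progenitors, and in 15.8%, 12.6% and 6.69% at 10000 UMIs per cell. The summed level of the list was 1151, 697 and 282 CPM, against 3810, 2692 and 1515 CPM in other neural progenitors and 3356, 3357 and 3292 CPM in endothelium-like cells. The keratin krt4 was read at 10000 UMIs in 55.6%, 48.3% and 34.0% of dorsal progenitors and in 41.6%, 36.3% and 31.0% of endothelium-like cells. Those cells were chosen as background for neural genes, and how much of the krt4 signal was free RNA was not tested. The differences between libraries are therefore also given without the cells that held at least 3 of these markers.

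Dorsal progenitors were set against the other neural progenitors of the same library, so that each library gives its own value. Of 2376 genes with at least 50 CPM in either set, 37 (1.56%) were at least 2-fold higher in dorsal progenitors in each of the 3 libraries and 64 (2.69%) at least 2-fold lower. The median gene differed by 0.01 on the log2 scale. Genes used to choose either set were left out of these counts. Because the rule picked the cells by the genes they hold, the values are a description, and 3 libraries could not reach p = 0.05 in an exact sign test in any case (smallest two-sided p 0.25).

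The Zic family, zinc-finger factors of the dorsal neural tube, was higher throughout: 4 of the 4 members outside the rule that reached 50 CPM passed 2-fold in every library. The gene zic2b stood at 548, 469 and 289 CPM in mutant, heterozygote and wild-type dorsal progenitors, against 144, 112 and 62.9 CPM in other neural progenitors (mean log2 ratio 2.06, 1.93 to 2.2 over the libraries). The genes zic2a and zic5 had mean log2 ratios of 1.88 and 1.95. In the RefSeq table of assembly GRCz12tu, zic1 lies next to zic4 and zic5 next to zic2a, so the members are not independent genes. At 10000 UMIs, zic2b was found in 95.5%, 89.3% and 74.8% of dorsal progenitors and in 14.9%, 14.5% and 11.0% of endothelium-like cells.

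Several targets and components of BMP signaling were higher. The BMP ligand gene bmp5 stood at 115, 109 and 90.1 CPM in mutant, heterozygote and wild-type dorsal progenitors, against 19.5, 20.1 and 14.3 CPM in other neural progenitors (mean log2 ratio 2.55, 2.44 to 2.66). The homeobox gene msx1b, a BMP target, stood at 479, 400 and 241 CPM against 102, 89.2 and 41.1 CPM (2.31, 2.16 to 2.55). On the list of BMP ligands and receptors bmp5 was the only 1 of 23 rows tested. It entered through dorsal progenitors only, so it could pass only as higher. Of 7 genes tested on the list of BMP targets, 3 passed 2-fold, where 1.56% of all genes were higher. The 3 genes were the targets msx1a and msx1b, and smad1, which carries the BMP signal to the nucleus and is not itself a target. The inhibitor of DNA binding id3 was higher by less, at 359, 377 and 151 CPM against 223, 213 and 74.5 CPM.

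Of the 16 genes on the roof plate list only 3 reached 50 CPM and were tested, namely msx1a, msx1b and rspo3. All 3 were past 2-fold higher, with a median log2 ratio of 1.96, against 1.56% of all genes counted. Of these, msx1a and msx1b are also on the list of BMP targets, so the lists overlap. The Wnt enhancer gene rspo3 had 70.7, 67.9 and 35.2 CPM against 18.1, 17.3 and 12.3 CPM. It entered the count through dorsal progenitors only, so it could pass only as higher. The gene lmx1a, for a roof plate and rhombic lip factor, stayed under 50 CPM, at 17.6, 18.9 and 8.85 CPM against 1.5, 1.52 and 1.16 CPM, and was found in 0%, 0% and 0.690% of endothelium-like cells at 10000 UMIs. The roof plate ligands gdf6a, at 17.7, 12.1 and 9.40 CPM, and wnt3a, at 6.21, 7.33 and 7.70 CPM, were low as well. These 3 genes were thus higher than in other progenitors, while the ligand genes gdf6a and wnt3a stayed low.

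Wnt genes gave a divided picture. The gene wnt11, for a ligand best known for signaling outside the beta-catenin branch, had 109, 79.4 and 55.9 CPM against 51.1, 32.2 and 25.7 CPM (mean log2 ratio 1.17, 1.09 to 1.30), and axin2, the common readout of beta-catenin signaling, had 192, 154 and 117 CPM against 76.8, 65.2 and 47.6 CPM (1.29, 1.24 to 1.32). Lower were the receptor gene fzd7a (-1.50), the secreted inhibitor gene sfrp5 (-2.74) and the transcriptional repressor gene tcf7l1a (-1.53). Of 4 Wnt receptors and secreted modulators tested, 0 rose and 2 fell. Of 7 Wnt targets and transcription factors tested, 1 rose, axin2, and 1 fell, tcf7l1a, with a median log2 ratio of 0.19. Over all genes 1.56% were higher and 2.69% lower. Only 2 of those 4 and 6 of these 7 genes reached 50 CPM in dorsal progenitors. The rest, sfrp5 and tcf7l1a among them, could pass only as lower. The gene wnt11 entered through dorsal progenitors and could pass only as higher.

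Of 7 Notch receptors and ligands tested, 3 passed 2-fold in every library, the delta genes dla, dlb and dld, with mean log2 ratios of 1.37, 2.12 and 1.17. For dlb the levels were 77.5, 52.8 and 68.1 CPM against 19.9, 13.9 and 12.4 CPM, though endothelium-like cells of the mutant library held 121 CPM of it. Of 13 Notch target rows none passed in either direction (median log2 ratio 0.23). Among cell cycle genes 0 of 19 S phase and 0 of 20 G2 and M phase rows were past 2-fold, with medians of 0.00 and 0.19. Over all genes 1.56% were higher and 2.69% lower, so a count of 0 in lists of this length is near that share. Fewer than 3 UMIs of elavl3 and elavl4 were required of the other progenitors and not of the dorsal ones, so that cells rich in elavl3 were on 1 side only.

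Guidance and adhesion genes marked the dorsal progenitors on both sides. The gene draxin, for a secreted repellent of commissural axons, had the highest mean ratio of all genes counted, at 54.7, 59.9 and 48.9 CPM in mutant, heterozygote and wild-type dorsal progenitors, against 5.33, 5.08 and 4.14 CPM in other neural progenitors (3.49, 3.36 to 3.56). The cadherin gene cdh6 had 188, 196 and 240 CPM against 39.9, 38.8 and 44.5 CPM (2.33), and cdon, a co-receptor for Hedgehog, had 317, 312 and 248 CPM against 65.8, 72.6 and 52.6 CPM (2.2). In contrast ntn1a, which encodes the floor plate and ventricular attractant netrin, had a mean log2 ratio of -2.84, robo4 -2.75 and the chemokine gene cxcl12a -1.86.

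**Figure D2:**
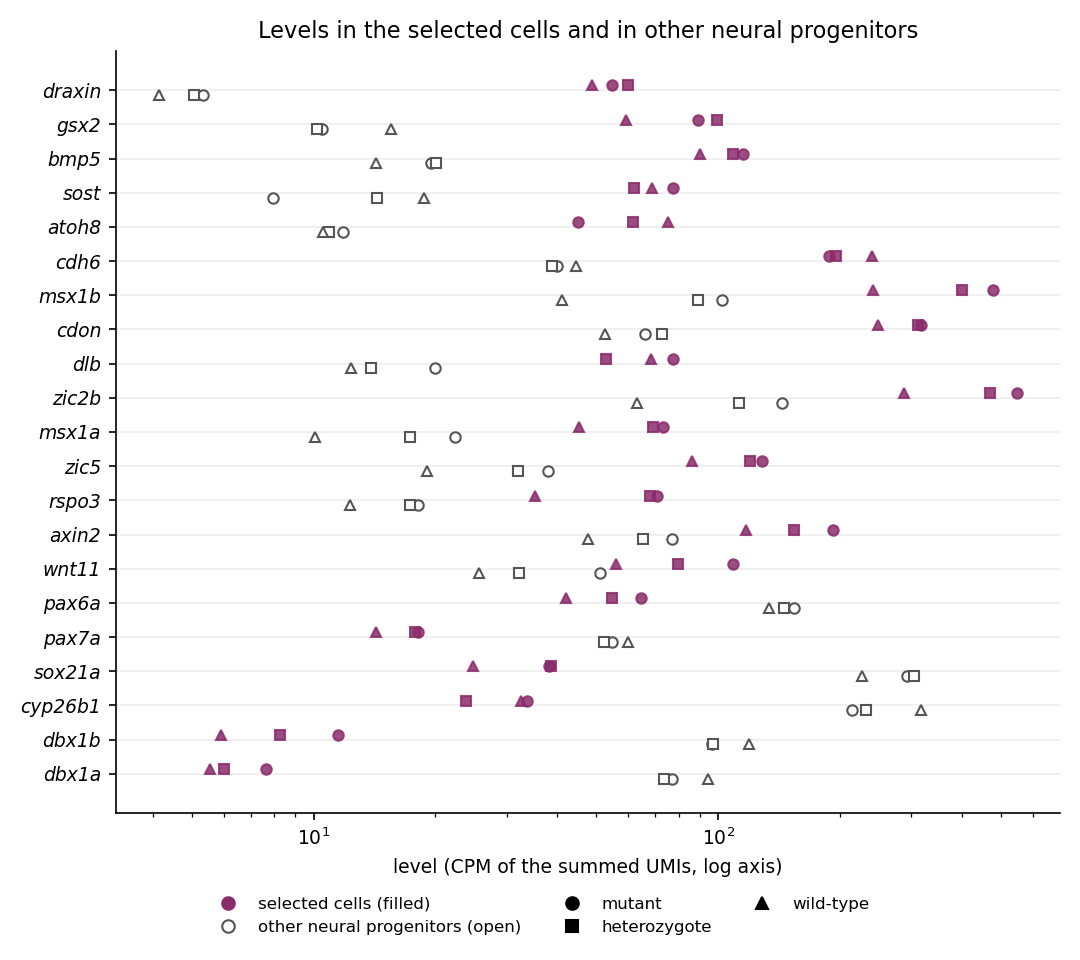
Levels of 21 genes (CPM, log axis) in dorsal progenitors (filled symbols) and other neural progenitors (open symbols) of the mutant, heterozygote and wild-type libraries. From draxin to wnt11 every filled symbol lies to the right of its open counterpart, and from pax6a to dbx1a every one lies to the left.

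Genes of the intermediate domain were lower in dorsal progenitors, while 0 of the 14 genes listed for the ventral domain were tested. The gene dbx1a, which defines the intermediate domain, had 7.65, 6.01 and 5.55 CPM against 76.8, 73.5 and 94.6 CPM (mean log2 ratio -3.68), and dbx1b and prdm12b were lower in every library too (-3.65 and -3.16), which makes 3 of the 3 genes tested on that list. The whole list summed to only 30.1, 23.2 and 20.3 CPM in dorsal progenitors. These 3 genes therefore entered the count through the other progenitors and could pass only as lower. Ratios were also below 0 for pax7a, pax6a and irx3a, whose products pattern the tube along its dorsoventral axis (-1.74, -1.44 and -1.2). These 3 are not on the list of the intermediate domain. The gene pax3a was at 193, 142 and 123 CPM against 145, 110 and 115 CPM. The retinoic acid degrading enzyme gene cyp26b1 had 33.7, 23.8 and 32.6 CPM against 215, 232 and 317 CPM (-3.08), and sox21a had 38.2, 38.5 and 24.7 CPM against 294, 305 and 226 CPM (-3.04). Markers of epidermis and endoderm (6 of 7) and of the otic placode (2 of 2, oc90 and stm) were also lower, and the lowest mean ratio, -4.20, belonged to the cathepsin-like gene zgc:174855. Since the rule for other neural progenitors did not exclude otic or epidermal cells, these 2 lists are no contrast among neural cells alone.

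The nearest neighbours in the tube gave a narrower contrast. Cells of the gsx and prdm13 domain were taken as non-selected cells with UMIs of at least 2 of gsx1, gsx2, prdm13 and ptf1a (230, 203 and 262 cells; median depths 19540, 16323 and 19873.5 UMIs). Against them 16 of 2347 genes (0.682%) were at least 2-fold higher in dorsal progenitors in each library, and 38 (1.62%) were lower. The higher ones again held bmp5 (mean log2 ratio 3.50), rspo3 (4.05), cdh6 (3.16), cdon (2.88) and msx1b (2.44), joined by the bHLH gene atoh8 (4.33) and the Myc gene myca (3.20). The Zic genes, by contrast, were not past 2-fold in all 3 libraries: zic2b had log2 ratios of 0.95, 1.1 and 0.78. Lower were lbx1b, a fate gene of the next dorsal neurons, with 23.6, 11.2 and 5.60 CPM against 190, 172 and 104 CPM (-3.72), pax7a (-3.01) and phox2bb (-3.47).

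Against dbx1 cells, non-selected cells with at least 2 UMIs of dbx1a and dbx1b (726, 1016 and 1135 cells; median depths 17474, 15656.5 and 17916 UMIs), 33 of 2390 genes (1.38%) were higher and 50 (2.09%) lower. Here 4 of 4 Zic genes passed, with zic2b at 548, 469 and 289 CPM against 22.7, 20.8 and 10.6 CPM (4.62, 4.50 to 4.77). The BMP target id3 (1.56) and the BMP signal carrier smad1 (2.55) passed as well. The lowest were the hairy-related gene her3 (-6.14) and the homeobox gene otpa (-5.63), and 5 of 8 Pax and Irx genes were lower. The Zic genes thus differed between dorsal progenitors and the dbx1 domain by more than between dorsal progenitors and the gsx and prdm13 domain, a comparison that was not tested. The Notch ligand gene dlb, higher than in other neural progenitors as a whole, was lower than in both of these domains, at 77.5, 52.8 and 68.1 CPM in dorsal progenitors against 270, 158 and 185 CPM in gsx and prdm13 cells (-1.61) and 176, 149 and 186 CPM in dbx1 cells (-1.38). Of the 7 Notch receptors and ligands none was higher against either domain, with medians of -0.44 and -0.32, where 0.682% and 1.38% of all genes were higher.

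Although gsx2 belongs to the domain below, it was higher in dorsal progenitors than in other neural progenitors, with 89.0, 99.3 and 59.1 CPM against 10.5, 10.2 and 15.5 CPM (mean log2 ratio 2.77). Its relative gsx1 was lower, with 29.0, 14.9 and 13.1 CPM against 88.8, 66.8 and 62.4 CPM. A UMI of gsx2 was read in 20.3%, 17.8% and 13.3% of dorsal progenitors at 10000 UMIs and in 0%, 1.61% and 2.76% of endothelium-like cells, where 0 of 101 mutant cells allows up to 2.97% (a limit of 3 counts of the total). The gsx2 cells were nearly separate from the atoh1a cells. Of 96, 129 and 133 dorsal progenitors with gsx2, only 6, 6 and 15 held atoh1a, or 6.25%, 4.65% and 11.3%, against 41.8%, 50.5% and 51.6% of those without gsx2. Median depths were 20410.5, 19521 and 22150 UMIs in cells with gsx2 and 18379, 16933 and 20917 UMIs in those without.

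Since the rule asked for olig3 or atoh1a, nearly all cells with gsx2 held olig3 by construction (96.9%, 98.4% and 95.5%). The rule gene olig4 was found in 42.7%, 42.6% and 52.6% of the cells with gsx2, against 69.5%, 71.0% and 72.5% of those without. Genes outside the rule differed too: prdm13, another gene of the domain below, was at 96.7, 68.5 and 27.8 CPM in cells with gsx2 and 20.9, 12.5 and 7.56 CPM in those without, and lbx1b at 52.5, 26.3 and 16.5 CPM against 15.5, 7.30 and 3.51 CPM. Levels of bmp5 were the reverse, at 12.6, 11.0 and 12.5 CPM against 144, 135 and 105 CPM. These classes were drawn after their values were seen. The Hox gene hoxd4a was found in 89.6%, 84.5% and 88.7% of the cells with gsx2 and in 36%, 36.5% and 36% of those without.

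The atoh1a cells themselves were compared with the rest of the selection. Cells with at least 3 UMIs of atoh1a numbered 116, 227 and 282 (24.2%, 32.9% and 31.6% of dorsal progenitors) and cells with none 313, 401 and 485, with 50, 63 and 125 cells between. These are ranges of 1 gene and not cell types. The cells with atoh1a were the shallower ones, with medians of 18227, 16115 and 19169 UMIs against 19327, 18101 and 22318. In the atoh1a-high cells 36 of 2401 genes (1.5%) were at least 2-fold higher in every library and 15 (0.625%) lower. The lower count was 25 without the mutant library and 36 with cells thinned to 10000 UMIs.

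BMP genes were among the higher ones. The ligand gene bmp5 stood at 365, 250 and 204 CPM in atoh1a-high cells of the mutant, heterozygote and wild-type library, against 26.8, 32.0 and 27.7 CPM in atoh1a-negative cells (mean log2 ratio 3.20, 2.88 to 3.77). In cells with 1 or 2 UMIs of atoh1a it was between, at 86.2, 122 and 103 CPM. The BMP antagonist gene nog2 had 52.9, 67.9 and 58.1 CPM against 10.1, 7.47 and 5.72 CPM (2.97), and the pseudoreceptor gene bambia 126, 77.8 and 46.8 CPM against 11.1, 11.5 and 9.79 CPM (2.84). Of 9 BMP targets tested 3 rose, smad7, bambia and msx1b, and none fell, while 6 did not pass. Over all genes 1.5% were higher and 0.625% lower. The genes bmp5, nog2 and bambia were under 50 CPM in atoh1a-negative cells, so they could pass only as higher.

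The gene sost, which encodes the Wnt antagonist sclerostin, had the highest ratio, with 301, 171 and 171 CPM against 1.73, 2.24 and 4.07 CPM (6.36). It came from few cells, with a UMI in 17.2%, 10.6% and 11.0% of the atoh1a-high cells and 1.28%, 1.5% and 1.24% of the atoh1a-negative cells, and over all dorsal progenitors at 10000 UMIs its share (4.05%, 4.36% and 4.23%) lay near that of endothelium-like cells (6.93%, 2.42% and 3.45%). The gene rspo3 stood at 239, 155 and 85.1 CPM against 10.8, 16.2 and 5.63 CPM (3.88) and lmx1a at 50.5, 45.9 and 23.7 CPM against 4.18, 2.74 and 1.21 CPM. Of the 16 genes on the roof plate list 3 were tested, and 2 of them, msx1b and rspo3, passed. Both sost and rspo3 were under 50 CPM in atoh1a-negative cells and could pass only as higher.

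Other genes of these cells were cdh6, with 519, 441 and 512 CPM against 53.4, 58.3 and 87.6 CPM (2.92), the bHLH gene atoh8 with 114, 150 and 177 CPM against 17.7, 16.3 and 18.2 CPM (3.06), and the guidance gene slit3 (2.30). Of 8 proneural and early neuronal genes tested, 3 passed, 5 did not and none fell. Those that passed were ebf2 (2.02), myt1a (1.92) and the RNA-binding protein gene elavl3, at 336, 312 and 392 CPM against 110, 99.4 and 127 CPM (1.63). The proneural gene neurog1, under 50 CPM, went the other way, with 1.57, 1.64 and 1.99 CPM in atoh1a-high cells against 25.8, 10.6 and 9.18 CPM in atoh1a-negative cells. The ligand genes dlb (1.61) and dld (1.66) passed too, while 0 of 13 Notch targets and 0 of 39 S, G2 and M phase rows did. Over all genes 1.5% were higher and 0.625% lower, so these counts of 0 are near that share.

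**Figure D3:**
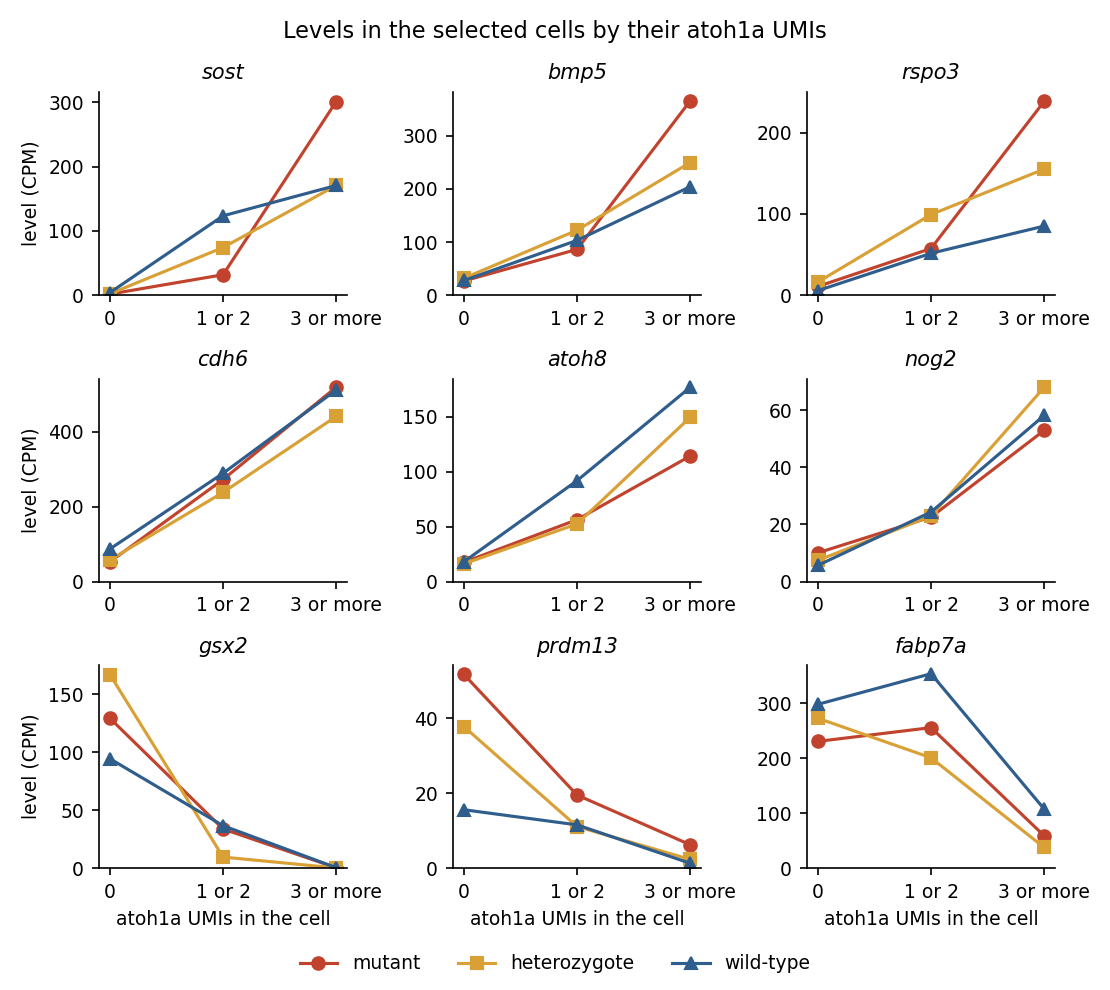
Levels of 9 genes (CPM) in dorsal progenitors with 0, with 1 or 2, and with 3 or more UMIs of atoh1a, a line for each library. The genes sost, bmp5, rspo3, cdh6, atoh8 and nog2 climb with atoh1a in each library, gsx2 and prdm13 decline, and fabp7a drops in the highest class.

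Several progenitor genes, and gsx2 and prdm13 of the domain below, were lower in atoh1a-high cells. A UMI of gsx2 was found in 1, 1 and 3 of these cells, against 90, 123 and 118 atoh1a-negative cells, and prdm13 had 6.27, 2.34 and 1.32 CPM against 51.6, 37.7 and 15.6 CPM. The radial glial gene fabp7a had 59.2, 37.7 and 108 CPM against 231, 273 and 298 CPM (-2.09), and with sox19a (-1.15) and sox19b (-1.70) it was 1 of 3 neural progenitor genes of 13 that fell. The genes pax3a (-1.35), pax6a (-1.58) and irx3a (-1.58) fell too, 3 of 5 genes on the Pax and Irx list. Of 5 Zic genes tested none passed in either direction (median log2 ratio -0.16), where 1.5% of all genes were higher and 0.625% lower.

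The position of the cells along the hindbrain was read from Hox genes of group 3 and 4, whose front border lies behind the middle of the hindbrain. A UMI of at least 1 of hoxb4a, hoxd4a, hoxa4a, hoxb3a and hoxd3a was held by 76.0%, 72.6% and 72.2% of dorsal progenitors, which are called posterior, and by 71.2%, 68.8% and 64.4% at 10000 UMIs per cell. Their median depth was 18952.5, 17658.5 and 21229.5 UMIs, against 18297, 16044 and 20204.5 in the anterior ones. The genes hoxb5a (6.21, 3.08 and 3.95 CPM) of the spinal cord and otx2b (2.87, 4.84 and 1.95 CPM) of the midbrain were low. Of 2312 genes, 21 (0.908%) were at least 2-fold higher in posterior cells in every library and 11 (0.476%) lower. Without the wild-type library 21 were lower, and without the 8% deepest cells 12 were higher.

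Posterior cells held the retinoic acid receptor gene raraa at 161, 184 and 273 CPM, against 26.9, 13.3 and 37.4 CPM in anterior cells (mean log2 ratio 3.08, 2.58 to 3.79). The ligand gene wnt11 followed the same line, with 130, 101 and 72.3 CPM against 31.7, 14.8 and 10.7 CPM (2.52, 2.04 to 2.78). The gsx2 transcripts were almost all posterior, with 112, 130 and 80.2 CPM against 5.29, 9.85 and 0.752 CPM. The keratin gene krt4 (2.31) and the claudin gene cldni (3.09) also stood among the higher genes, and cldni rested on few cells, its ratio being -0.01 at 10000 UMIs per cell.

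Anterior cells carried the genes of their own rhombomeres. The gene en2b, of the isthmus and rhombomere 1, had 7.45, 12.6 and 25.7 CPM in posterior cells against 144, 166 and 140 CPM in anterior cells (-3.48), and en2a was lower in the same way (-4.08). The gene egr2b, which specifies rhombomeres 3 and 5, had 69.4, 40.7 and 33.0 CPM against 306, 177 and 117 CPM (-2.03), and the Eph receptor gene epha4a of the same segments 43.1, 34.1 and 44.0 CPM against 200, 180 and 179 CPM (-2.22). Levels of hoxa2b (-1.41) and of the retinoic acid degrading enzyme gene cyp26c1 (-2.04) were lower as well. The rhombomere genes among those lower in posterior cells were thus of rhombomeres 1 to 3 and 5. The genes egr2b and epha4a do not tell rhombomere 3 from 5, and the limit on mafba left rhombomere 5 under-represented. Others among the lower genes, such as sost, rspo3 and bambia, were not on the rhombomere lists. The Hox genes of the split chose the posterior cells and are no result, and of the 16 genes on the list for rhombomere 5 to 7 and the spinal cord 0 were tested here.

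Among the selected cells, atoh1a-high cells were unevenly spread along the hindbrain. Atoh1a-high cells made up 20.9% (16.8 to 25.4%) of posterior and 34.8% (26.1 to 44.2%) of anterior cells in the mutant library, 27.9% (24.0 to 32.0%) and 46.0% (38.8 to 53.4%) in the heterozygote library, and 28.0% (24.5 to 31.6%) and 41.1% (34.9 to 47.5%) in the wild-type library. The intervals cover counting error over the cells of 1 library and not the spread between embryos. Since atoh1a also chose the cells, these shares are a description, and the posterior cells were the deeper ones. The limits on mafba and hoxb1a had also turned away 268, 286 and 278 cells with at least 4 markers. Those cells held 600, 518 and 453 CPM of hoxb3a, 238, 212 and 276 CPM of atoh1a and 254, 270 and 348 CPM of cdh6. The shares and levels given here leave these cells out, and their part in the differences was not tested. The genes bmp5 (-1.38), cdh6 (-1.39), rspo3 (-1.85), bambia (-1.72) and sost (-2.15) had lower levels in posterior cells.

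Holding 1 axis fixed showed which genes went with which. Levels of gsx2 were high only where atoh1a was absent and Hox genes were present: it stood at 154, 196 and 119 CPM in atoh1a-negative posterior cells (34.9%, 36.1% and 30.5% of 258, 330 and 383 cells), against 0, 22.6 and 1.26 CPM in atoh1a-negative anterior cells and under 1 CPM in both atoh1a-high classes. Levels of wnt11 went with Hox genes in both atoh1a classes, with 108, 82.6 and 62.0 CPM in atoh1a-high posterior cells against 8.58, 9.87 and 7.23 CPM in atoh1a-high anterior cells, and 140, 112 and 73.9 CPM against 42.3, 18 and 10 CPM in the atoh1a-negative ones. For rspo3 the values were 176, 105 and 81.2 CPM in atoh1a-high posterior cells against 371, 246 and 92.6 CPM in atoh1a-high anterior cells, and only 4.81, 3.43 and 2.29 CPM in atoh1a-negative posterior cells. The ligand gene bmp5 likewise had 268, 196 and 189 CPM against 572, 347 and 233 CPM within the atoh1a-high cells.

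**Figure D4:**
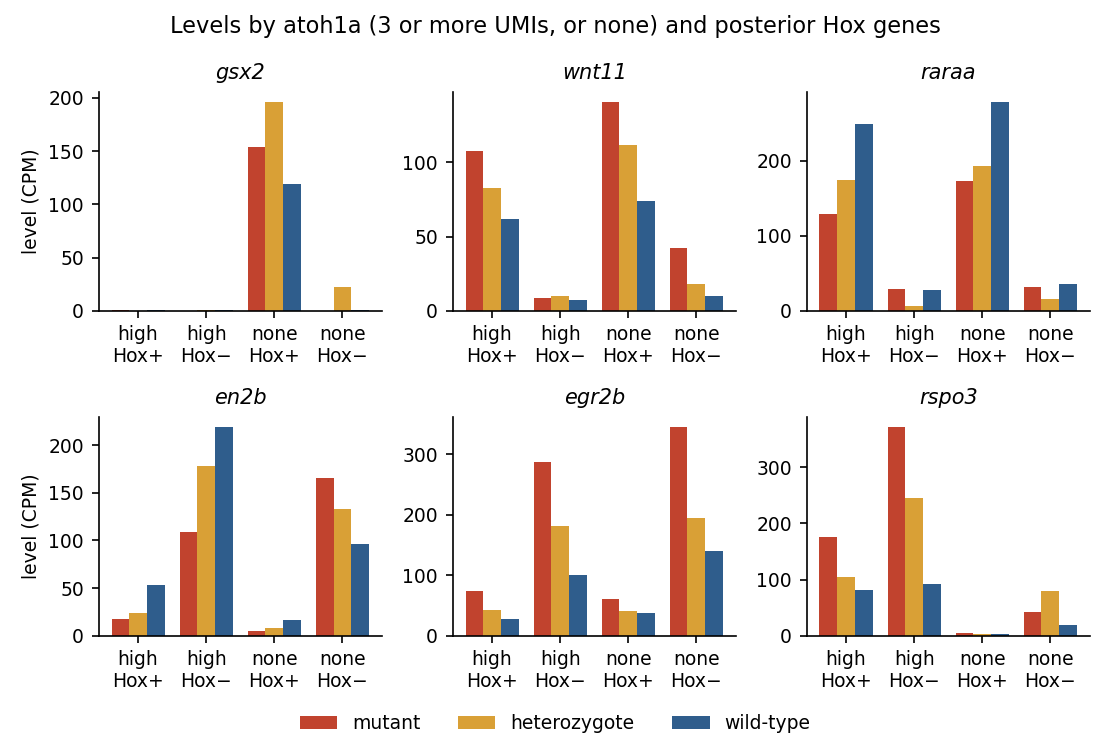
Levels of 6 genes (CPM, bars from 0) in 4 classes of dorsal progenitors: atoh1a-high or without atoh1a, each with (Hox+) or without (Hox−) a UMI of the posterior Hox genes, for the mutant, heterozygote and wild-type library. The gene gsx2 appears almost only in cells without atoh1a and with Hox genes, raraa and wnt11 go with Hox genes whatever the atoh1a class, en2b and egr2b go with their absence, and rspo3 is highest in atoh1a-high Hox− cells.

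Between genotypes, dorsal progenitors of the mutant library held 310 of 2442 genes (12.7%) at least 1.5-fold higher than those of the wild-type library and 122 (5.0%) at least 1.5-fold lower. With median-of-ratios scaling, which moved every log2 ratio by -0.15, the split was 211 higher and 198 lower, so the excess of higher genes was smaller there. Heterozygote over wild-type gave 203 of 2366 (8.58%) higher and 103 (4.35%) lower, with a shift of -0.06. Mutant over heterozygote gave 22 of 2352 (0.935%) higher and 13 (0.553%) lower, or 17 and 17 with that scaling. The SD of log2 ratios over genes was 0.57 and 0.49 over wild-type and 0.26 for mutant over heterozygote, so the wild-type library stood apart from the other 2, and by the study's methods it had its own transgenes. Without the cells that held at least 3 epidermis and endoderm markers, an alternative chosen after the data were seen, 305 genes were higher and 120 lower in mutant over wild-type cells and 201 and 104 in heterozygote over wild-type cells.

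Several of the dorsal genes described above were among those higher in mutant cells. Of 5 Zic genes outside the rule 3 were past 1.5-fold and none lower (median log2 ratio 0.92, all genes 0.07): zic2b, with 548, 469 and 289 CPM in mutant, heterozygote and wild-type dorsal progenitors, had log2 ratios of 0.92 (0.87 to 0.98) for mutant and 0.70 (0.65 to 0.75) for heterozygote over wild-type. The gene msx1b, at 479, 400 and 241 CPM, had 0.99 (0.93 to 1.05) and 0.73 (0.67 to 0.79), and msx1a and rspo3 were higher too, which makes 3 of 3 roof plate genes, although msx1a (0.69) was under 1.5-fold with median-of-ratios scaling (0.54). Both msx1a and rspo3 were under 50 CPM in the wild-type library, so they could be called only as higher. The BMP target id3 was at 359, 377 and 151 CPM, with 1.25 (1.18 to 1.32) and 1.32 (1.25 to 1.38).

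These ratios were not particular to the dorsal progenitors. In other neural progenitors mutant cells had log2 ratios of 1.2 for zic2b, 1.32 for msx1b and 1.58 for id3 over wild-type cells, and in endothelium-like cells id3 had 1.17. The genes that were higher in dorsal progenitors than in other neural progenitors did not go 1 way between the libraries. Beside msx1b and id3, rspo3 (1.01), wnt11 (0.96) and efnb2a (1.1) were past 1.5-fold higher in mutant over wild-type cells. By contrast bmp5 had 0.35 (0.25 to 0.46), draxin 0.16 (0.01 to 0.31), cdon 0.35 (0.29 to 0.42) and cdh6 -0.36 (-0.43 to -0.28) for mutant over wild-type, none past 1.5-fold. The gene atoh8, at 44.9, 61.6 and 75.1 CPM, was lower (-0.74, -0.89 to -0.59). It went with atoh1a within each library, and cells with at least 3 UMIs of atoh1a were 18.7%, 27.6% and 22.8% of dorsal progenitors at 10000 UMIs per cell. The part of that share in the atoh8 difference was not tested.

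Levels of gsx2 differed in direction between the cell sets. In dorsal progenitors it was 0.59 (0.46 to 0.72) higher on the log2 scale in mutant and 0.75 (0.63 to 0.86) higher in heterozygote than in wild-type cells, while in other neural progenitors the values were -0.57 and -0.61. The mutant value was under 1.5-fold with median-of-ratios scaling (0.44) and without the cells that held epidermis and endoderm markers (0.41). The share of dorsal progenitors with at least 2 genes of gsx1, gsx2, prdm13 and ptf1a was 18% in the mutant, 13.2% in the heterozygote and 7.51% in the wild-type library, and 13.1% (10.1 to 16.6%), 8.57% (6.52 to 11.0%) and 4.23% (2.98 to 5.8%) at 10000 UMIs per cell. Among dorsal progenitors with atoh1a, where gsx2 was nearly absent, its direction turned (-0.17 for mutant and -2.13 for heterozygote over wild-type). The mutant selection therefore held relatively more cells with genes of the domain below, and relatively fewer with atoh1a at 10000 UMIs (30.0%, 37.5% and 39.8%), and no test of either was possible. Genes of the rule differed between libraries too. In dorsal progenitors with gsx2, olig3 stood at 270, 228 and 143 CPM and zic4 at 215, 197 and 124 CPM, and all 7 rule genes were higher in mutant than in wild-type cells. The part of this in the gsx2 values was not tested.

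Notch targets were split within 1 gene family. Of 13 rows tested 6 were higher and 2 lower in mutant over wild-type cells (all genes 12.7% and 5.0%). The gene her9 had 452, 407 and 174 CPM in mutant, heterozygote and wild-type dorsal progenitors (1.37 and 1.22), while her12 had 316, 273 and 834 CPM (-1.40 and -1.61). For her15.1 the levels were 2623, 2683 and 1058 CPM and for its neighbour her15.2 they were 1197, 1575 and 1973 CPM, and the sum of both was 3820, 4258 and 3031 CPM, a log2 ratio of 0.33 for mutant over wild-type. Since these copies lie next to each other and could share reads, the opposite directions of her15.1 and her15.2 are uncertain, and the same holds for her12 beside the her4 copies, whose sum over 5 rows was 3536, 3106 and 2193 CPM. Ratios of the same sign were seen in other neural progenitors for her9 (1.03), her12 (-1.21), her15.1 (1.1) and her15.2 (-0.93).

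**Figure D5:**
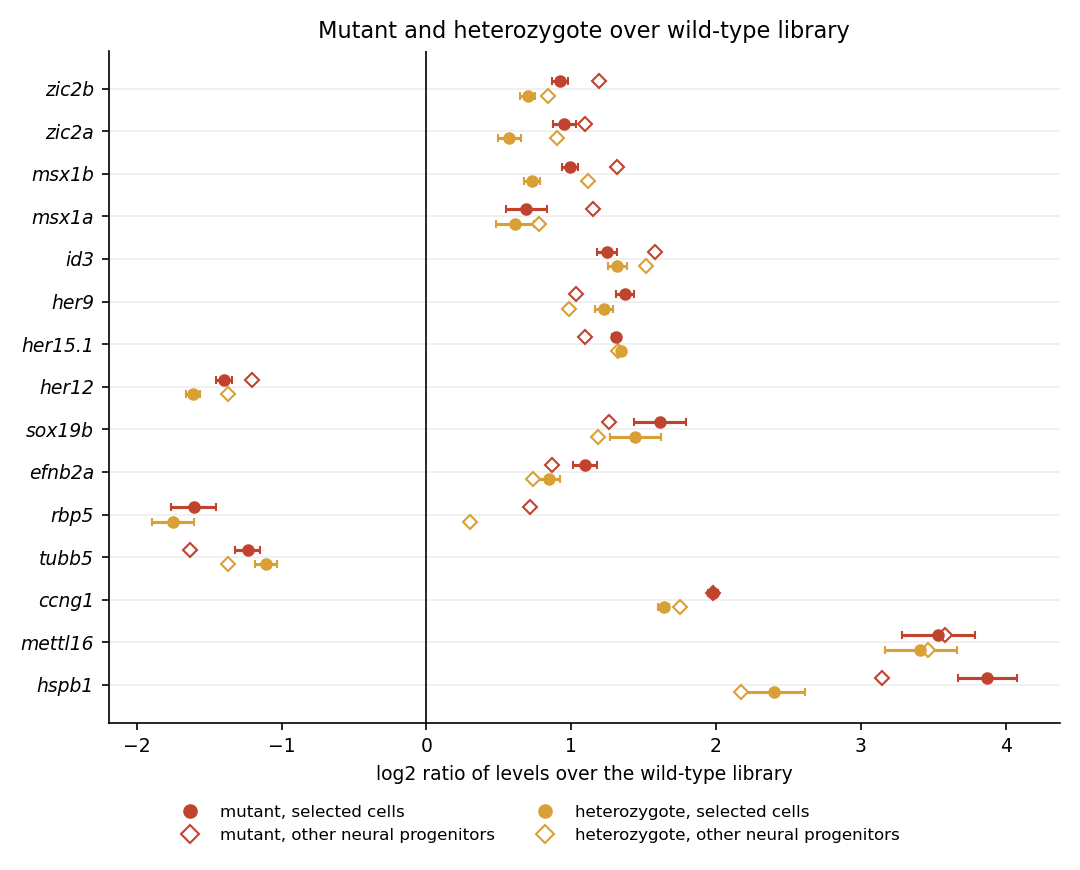
Log2 ratios over the wild-type library for 15 genes in dorsal progenitors (filled, with exact 95% counting intervals) and in other neural progenitors (open diamonds), for the mutant and the heterozygote library. Open and filled symbols lie on the same side of 0 for every gene except rbp5, and mutant and heterozygote values lie close together for most genes.

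Genes of the stress list had high ratios. The cyclin G gene ccng1 had 1862, 1468 and 472 CPM in mutant, heterozygote and wild-type dorsal progenitors, a log2 ratio of 1.98 (1.95 to 2.02) for mutant and 1.64 for heterozygote over wild-type. The ubiquitin ligase gene mdm2, with 92.0, 54.2 and 18.1 CPM (2.35 and 1.58), moved alike. On that list 7 of 10 genes tested were higher in mutant cells and none lower (all genes 12.7% and 5.0%). The values were like those in other cells, with 1.98 in other neural progenitors and 1.74 in endothelium-like cells for ccng1. The median share of mitochondrial UMIs in dorsal progenitors was 2.89%, 2.53% and 1.80% in the mutant, heterozygote and wild-type library, and its part in these ratios was not tested. Among the most extreme ratios, mettl16 (89.0, 81.9 and 7.70 CPM) was higher and spc24 (8.32, 6.23 and 57.6 CPM), a kinetochore gene, lower by similar amounts in dorsal progenitors and in endothelium-like cells, 3.53 and 3.58 for mettl16 and -2.79 and -2.38 for spc24.

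The gene rbp5, for a retinol-binding protein, was the exception among the lowest genes. It had 37.4, 33.9 and 114 CPM in mutant, heterozygote and wild-type dorsal progenitors (-1.61, -1.76 to -1.45, and -1.75, -1.90 to -1.60), but 70.3, 52.8 and 42.8 CPM in other neural progenitors (0.72 and 0.30) and 117, 76.8 and 75.6 CPM in endothelium-like cells. In the wild-type library it was a posterior gene, with 150 CPM in posterior against 13.2 CPM in anterior cells, whereas the mutant library had 41.1 against 23.8 CPM and the heterozygote library 39.2 against 18 CPM. At 10000 UMIs it was read in 17.1%, 16.8% and 35.3% of dorsal progenitors and in 35.6%, 34.7% and 28.3% of endothelium-like cells. Its share in dorsal progenitors was thus below that of endothelium-like cells in the mutant and heterozygote libraries. Those cells were chosen as background for neural genes. Whether they express rbp5 themselves was not tested, so they set no background for it. Without the cells that held epidermis and endoderm markers the rbp5 ratio was -2.36 for mutant over wild-type. The gene raraa, also of the retinoic acid list and also posterior, was lower by less (132, 141 and 210 CPM, -0.67 and -0.58), with -0.49 and -0.64 in other neural progenitors.

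The rhombomere 3 and 5 gene egr2b had 121, 75.1 and 55.4 CPM in mutant, heterozygote and wild-type dorsal progenitors (1.12 and 0.44), and the ephrin gene efnb2a 241, 202 and 112 CPM (1.1 and 0.84). Of 7 genes tested for rhombomeres 2 to 4 these 2 were higher in mutant over wild-type cells and 0 lower. Of 3 tested for rhombomeres 5 to 7 and the spinal cord 0 passed (median log2 ratio 0.27). Over all genes 12.7% were higher and 5.0% lower, so a count of 0 in so short a list is near that share. The gene en2b was lower in the mutant cells, with 37.1, 51.4 and 56.1 CPM (-0.60), though without the cells with at least 3 UMIs of elavl3 its ratio was 0.06. Of 5 Pax and Irx genes 4 were higher in mutant cells, pax3a (0.64), pax6a (0.61), irx1b (1.13) and irx3a (0.87), and 0 of 5 in heterozygote over wild-type cells (all genes 12.7% and 8.58%). With median-of-ratios scaling pax3a (0.49) and pax6a (0.46) were under 1.5-fold. The early progenitor gene sox19b was higher (63.9, 56.8 and 20.9 CPM, 1.61 and 1.44) and the tubulin gene tubb5 lower (129, 141 and 304 CPM, -1.23 and -1.11), while cells with at least 3 UMIs of elavl3 were 15.5%, 14.5% and 21.5% of dorsal progenitors at 10000 UMIs per cell.

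Some of the highest ratios came from single cells. In the mutant library 1 cell gave 88.0% of the UMIs of the keratin gene krt17, 79.3% of krt92, 67.7% of krt5 and 63.5% of krt4, and 1 other cell gave 98.6% of si:ch73-23l24.1. In the heterozygote library 1 cell gave 98.5% of the UMIs of gch2, a pterin pigment enzyme gene, and 1 gave 97.7% of actc1b, a cardiac actin gene. Without the top cell of each library the log2 ratio of heterozygote over wild-type was -1.34 for gch2, against 4.64 with it, while krt4 had a mutant over wild-type value of 1.80, against 2.66, and 0.84 without the cells that held epidermis and endoderm markers. By comparison the top cell gave 1.2%, 1.0% and 0.7% of the zic2b UMIs, and hspb1, a small heat shock protein gene, was found in 378, 303 and 156 cells (167, 60.1 and 11.4 CPM; 3.87 and 2.4).

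Mutant over heterozygote, the comparison of the 2 libraries with closer gene levels, left few genes. Outside the keratins and the single-cell genes the higher ones included hspb1 (1.47, 1.35 to 1.59), the growth arrest gene gadd45gb.1, with 71.7 CPM in mutant and 29.1 CPM in heterozygote cells (1.30, 1.12 to 1.48), hsp90aa1.2 (1.06), mdm2 (0.76), her4.3 (0.71) and egr2b (0.68). Of the Zic, roof plate, BMP target, Wnt target and Pax and Irx lists, with 5, 3, 8, 6 and 5 genes tested, none had a gene past 1.5-fold in either direction. Over all genes 0.935% were higher and 0.553% lower, so a count of 0 in such short lists is near that share. For gadd45gb.1 the wild-type level, 52.4 CPM, lay between the other 2.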

How the data were processed

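The authors made the deposited count matrices, which hold raw UMI counts per gene and barcode (25109 gene rows), with Cell Ranger 4.0.0 against GRCz11 with the EGFP and DsRed sequences added, and kept barcodes called as cells. Barcodes numbered 8877 in the mutant, 10419 in the heterozygote and 10466 in the wild-type library. Quality filters followed the study's methods (500 genes or more, fewer than 6500, mitochondrial share under 5%).

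UMIs were summed per library and cell set and scaled to CPM. Log2 ratios have exact conditional 95% intervals, shares have Clopper-Pearson intervals, and a count of 0 was set to 3 UMIs per library. Genes with at least 50 CPM in 1 of the compared sets were counted as past 1.5-fold between libraries, or past 2-fold in the same direction in each of the 3 libraries between cell sets. Thinning drew 10000 or 5000 UMIs per cell and left out shallower cells (35, 49 and 40 dorsal progenitors at 10000). With 1 library per genotype no test was made. The ratio code was tested on simulated data.

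The members and the 34 gene lists (511 of 525 genes found) were chosen with earlier results of these data known. Named genes are the genes of the rule, list genes past the threshold and the most extreme ratios (12 and 12 per library comparison, 20 and 10 against other neural progenitors). Alternatives covered scaling, the CPM minimum, thinning, the marker rule, depth and leaving out each library. Leaving out cells with epidermis markers, with elavl3 or with shared barcodes, and the gsx2 classes, were chosen after seeing the data. Software was matplotlib 3.10.9, pandas 2.3.3, scipy 1.17.1 and numpy 2.4.6 under python 3.11.15.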

Additional observations from a re-analysis of the deposited data

Results flagged for a closer look

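Barcodes outside the cell filters were not used in any comparison, and some of them met the marker rule: 20 of 2205 in the mutant library, 16 of 2186 in the heterozygote library and 10 of 1918 in the wild-type library. They drew attention because any signal there lies in data that the comparisons leave out.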

How the results depend on the processing

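No paired analysis was possible because there was 1 library per genotype. Leaving out a library concerned only the comparisons of cell sets. Against other neural progenitors it gave 37 to 44 higher and 62 to 79 lower genes, against gsx and prdm13 cells 16 to 23 and 38 to 46, against dbx1 cells 33 to 37 and 50 to 59, for atoh1a-high cells 38 to 44 and 16 to 25, and for posterior cells 21 to 30 and 11 to 21, since fewer libraries then had to pass. The 25 lower genes came without the mutant library and the 21 without the wild-type library.

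The share of selected cells in the mutant, heterozygote and wild-type library was 8.0%, 9.24% and 11.4% with at least 3 markers, 6.09%, 7.2% and 8.8% with at least 5, 11.2%, 11.9% and 13.7% without limits on mafba and hoxb1a, 5.62%, 6.79% and 8.62% of every deposited barcode, and 5.05%, 5.52% and 5.39% at 5000 UMIs, where heterozygote over wild-type turned to 0.034. At 10000 UMIs the wild-type share was 9.43%, or 9.19% without barcodes that had more UMIs in another library. The mutant share was the lowest in each of these.

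A minimum of 20 CPM gave 607 higher and 266 lower genes for mutant over wild-type, 415 and 235 for heterozygote over wild-type, 54 and 32 for mutant over heterozygote, 58 and 145 against other neural progenitors, 29 and 74 against gsx and prdm13 cells, 53 and 89 against dbx1 cells, 77 and 37 for atoh1a-high cells and 41 and 25 for posterior cells, because more genes were counted. With 100 CPM they were 171 and 61, 122 and 49, 11 higher, 24 and 34, 8 and 21, 21 lower, 20 and 8, and 13 and 7 in that order. Median-of-ratios scaling gave 198 lower genes for mutant over wild-type. Mutant over heterozygote gave 40 higher genes among cells with atoh1a, and 27 lower with at least 3 markers, 8 with each cell weighted equally and 8 without the 8% deepest cells. Thinning gave 36 lower genes in atoh1a-high cells, and leaving out the 8% deepest cells gave 12 higher genes in posterior cells. The cause of the changes in this and the preceding sentence was not tested.

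Some directions turned. For heterozygote over wild-type, in cells with atoh1a, thinned, without cells with at least 3 epidermis markers and without the 8% deepest cells in that order, CABZ01021592.1 had -1.63, -0.71, -1.05 and -1.10, actc1b -0.95, -1.46, -1.02 and -1.49, and gch2 -1.73, -1.50, -1.57 and -1.31. Without epidermis markers cldni had -0.68 and pfn1 -0.47, and pfn1 had -0.043 without cells with at least 3 UMIs of elavl3 (elavl3 cells) and -0.34 without the deepest. For mutant over heterozygote in the same order actc1b had 1.41, 3.17, 0.75 and 2.74. Without the deepest cells CABZ01021592.1 had 2.17, gch2 3.15, pfn1 1.46, krt92 -0.76 and spaca4l -0.56. With at least 3 markers krt4 had -1.06, krt5 -1.06, krt92 -0.54 and spaca4l -0.35, and with at least 5 si:ch73-23l24.1 had -1.05. With atoh1a only, krt17 had -0.16, krt4 -0.72, krt92 -0.89 and spaca4l -2.04. Thinned, col2a1a had -0.13, krt17 -0.57, krt4 -0.54, krt5 -0.51, krt92 -1.30, si:ch73-23l24.1 -0.39 and spaca4l -1.15. Without elavl3 cells krt17 had -0.078, krt4 -0.30, krt92 -0.73 and spaca4l -0.66, and without epidermis markers krt18a.1 had -0.70, krt5 -0.25 and si:ch73-23l24.1 -0.027. For mutant over wild-type en2b had 0.062 without elavl3 cells, fabp11a -0.48 with at least 5 markers, and krt18a.1 -0.32 thinned and -0.87 without epidermis markers, while gsx2 among cells with atoh1a had -0.17, and -2.13 for heterozygote over wild-type. Thinned, cldni had -0.014 and gch2 -0.45 in posterior cells, and gch2 had -0.79 against gsx and prdm13 cells. No other named gene past its threshold changed sign under the alternatives. Depth limits genes with few UMIs, such as shox2, whose share of cells with a UMI was at the level of background. Its UMIs were fewest in the mutant library, a difference that was not tested.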
